A study of Mus musculus with 2 samples.

Results

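The genes of glycolysis and of the pentose phosphate pathway were followed in single-cell RNA of 63.3 mouse acute myeloid leukemia cells. The set was chosen by name, with earlier results of these data known. It holds 31 genes of the 54736 gene symbols or unmatched identifiers in the count matrix, 24 from glucose uptake to lactate export and 7 from the pentose phosphate pathway. The 63.3 cells were grown in medium with 0.5 µM beta-estradiol and stem cell factor from conditioned medium, and the labels give no genotype for the line. In the brequinar series, 1 culture each was exposed to 2 µM brequinar, an inhibitor of the pyrimidine synthesis enzyme DHODH, for 6, 12, 24 or 48 h. In the withdrawal series, 1 culture each was washed and kept in medium without beta-estradiol for 6, 12, 24 or 48 h. Both series had a 0 h culture of their own, and whether the one for brequinar received solvent is not in the labels. No untreated culture stood at 6 to 48 h, so treatment and time in culture or handling cannot be told apart.

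Glycolysis splits glucose into pyruvate in the cytosol, yielding ATP, and lactate dehydrogenase with monocarboxylate transporters disposes of the pyruvate as exported lactate. The pentose phosphate pathway branches off at glucose 6-phosphate. Its oxidative branch makes NADPH, which phagocytes spend on the oxidative burst, and its non-oxidative branch interconverts sugar phosphates and supplies ribose for nucleotides. Neutrophils have few mitochondria and draw much of their ATP from glycolysis, and many glycolysis genes are known targets of the hypoxia-inducible factor HIF-1.

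Values are unique molecular identifiers (UMIs) of spliced transcripts, summed over the cells of a culture and scaled to counts per 1000000 (CPM). The 10 cultures held 528 to 1536 cells and 5236694 to 19931921 UMIs, and a floor of 3 counts stood at 0.151 to 0.573 CPM. A condition is a single culture, so there are no replicates to test against. Intervals are exact 95% intervals that cover counting error only. A gene counted as measured at 20 CPM or more in either culture compared, and as higher or lower at 1.5-fold. A gene that reached 20 CPM in only 1 of the groups compared can in practice be called in just that direction, so such genes are named beside their counts. Between both 0 h cultures, 0 of 23 measured members differed by 1.5-fold, beside 0% of 5490 genes higher and 0.0546% lower. All 9 markers of granulocyte-monocyte progenitors had counts in every culture, and 8 or 9 of them stood at 20 CPM or more. The 9 genes of maturing neutrophil granules summed to 328 and 385 CPM at 0 h, to 1954 CPM at 48 h of brequinar and to 58907 CPM at 48 h of withdrawal. Of 8 markers of eosinophils, mast cells and basophils, 6 had counts in the 0, 24 and 48 h cultures and Ear1 and Fcer1a none. Only 3 stood at 20 CPM or more at 0 h and at 24 and 48 h of withdrawal, and 2 at 48 h of brequinar. The 8 markers summed to 1081 and 1052 CPM at 0 h, to 12342 CPM at 48 h of brequinar and to 10394 and 7829 CPM at 24 and 48 h of withdrawal. Prg2 alone made up most of each of these late sums. At 48 h of brequinar it stood at 8453 and 9272 CPM in the cells split by glycolysis share below. Macrophage markers summed to 8.28 to 327 CPM, without a count of C1qa, and erythroid markers to 0.583 to 8.86 CPM. Megakaryocyte markers summed to 24.4 to 179 CPM, with 3 of 4 at 20 CPM or more at 24 and 48 h of brequinar. The part of these cell types in the values below was not tested. Free RNA, read from barcodes of 2 to 100 UMIs, held 168 CPM of Hk3, 29.1 CPM of Hk2 and 33 CPM of Slc16a3. For Hk2 and Slc16a3 these levels lay within the range of the cultures. For Hk3 the level lay just above its highest value in a culture, 166 CPM at 12 h of withdrawal.

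Of the 31 members, 24 reached 20 CPM in at least 1 culture and 19 did so in every culture. The other 7 were the glucose transporter Slc2a1, the muscle phosphofructokinase Pfkm, Pfkfb4, Aldoc, Gapdh, Ldhb and glucose 6-phosphate dehydrogenase G6pdx. Gapdh, the glyceraldehyde 3-phosphate dehydrogenase often used as a reference gene, stood at only 2.19 to 4.83 CPM. Of the 470 stretches of 31 bases in the last 500 bases of its transcript, 24 (5.11%) occur in no other annotated gene, and the rest are shared with 258 other genes. The same share was 15.7% for the enolase Eno1, which shared stretches with 9 other genes. It was 0% for Pfkp and for the epimerase Rpe, and these 2 each shared their stretches with 1 other gene. It was 64.5% for Ldhb and 81.9% or more for every other member. Values of Gapdh, Eno1, Pfkp and Rpe are therefore uncertain as levels. G6pdx, the entry enzyme of the oxidative branch, stood at 0.0762 to 1.31 CPM although 89.6% of these stretches were its own, and Slc2a1 at 0.137 to 0.729 CPM with 100%. In free RNA Slc2a1 stood at 5.59 CPM, above its level in the cells of every culture. Why G6pdx and Slc2a1 stood so low was not tested.

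Glycolysis transcripts stood below the starting level at 6 and 12 h in both series and above it at 48 h, and without beta-estradiol they passed it already at 24 h. The 24 glycolysis genes summed in the brequinar series to 4809 CPM at 0 h, 3735 at 6 h, 3713 at 12 h, 4462 at 24 h and 6865 at 48 h. In the withdrawal series they summed to 4828, 3720.2, 3698, 6769.5 and 8075 CPM at the same times. Both series were thus lowest at 6 and 12 h, at 0.766 to 0.777-fold of 0 h, and they parted at 24 h, when only the withdrawal culture stood above 0 h. The sum was 1.43-fold of 0 h (interval 1.41 to 1.45) at 48 h of brequinar and 1.67-fold (1.65 to 1.69) at 48 h of withdrawal. Counted per cell, glycolysis UMIs averaged 63.8, 39.1, 38.6, 49.0 and 68.1 in the brequinar series and 66.5, 35.9, 32.7, 70.8 and 57.5 in the withdrawal series. At 48 h of withdrawal the cells thus held fewer glycolysis UMIs than at 0 h, but these made up a larger share of all their UMIs: the median cell held 6509 UMIs in all, against 15229 at 0 h. The 7 pentose phosphate genes summed to 2551, 2377, 2079, 2431 and 2749 CPM in the brequinar series and to 2568, 2404, 2394, 3596 and 3851 CPM in the withdrawal series. Their sum at 48 h was 1.08-fold of 0 h (1.06 to 1.10) with brequinar and 1.5-fold (1.48 to 1.52) without beta-estradiol, beside 1.43-fold and 1.67-fold for glycolysis.

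**Figure D1:**
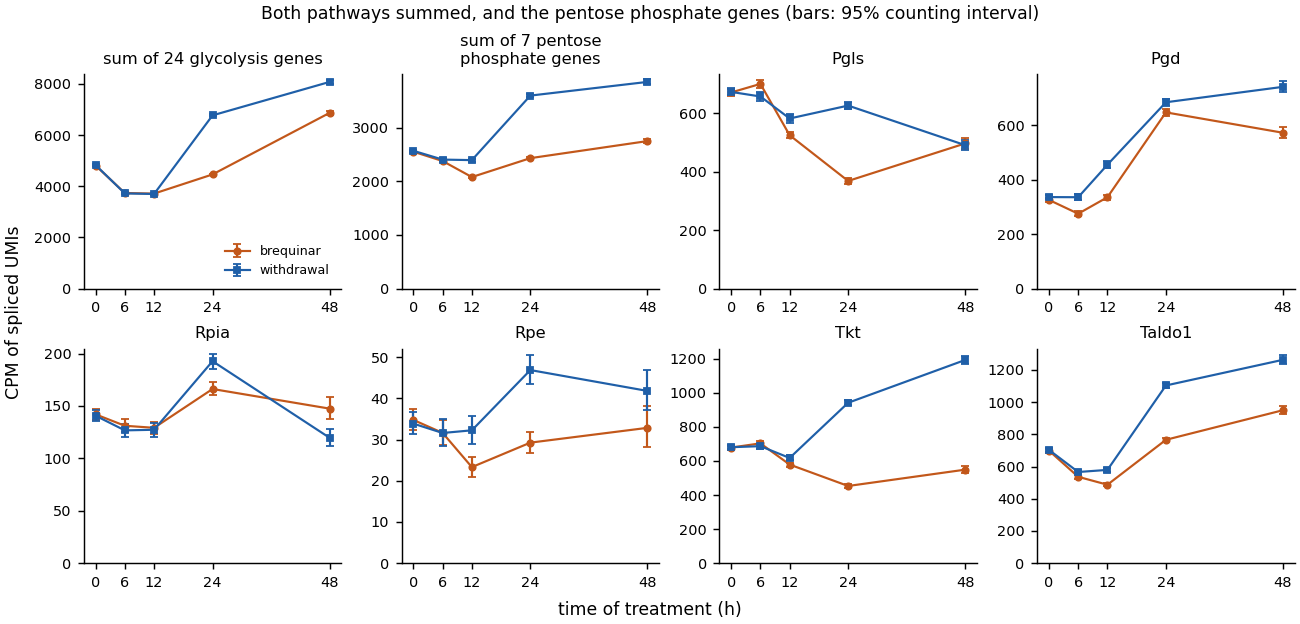
CPM of spliced UMIs (vertical axes, from 0) against hours of treatment for the summed glycolysis genes, the summed pentose phosphate genes and 6 single pentose phosphate genes, brequinar in orange and withdrawal in blue. Points are single cultures and bars are exact 95% counting intervals. The glycolysis sums of both series coincide to 12 h and stand at 6865 and 8075 CPM at 48 h, while the pentose phosphate sum of the brequinar series stays between 2079 and 2749 CPM.

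At 6 h, 4 of 23 measured members (17.4%) were lower with brequinar, beside 4.97% of the 5851 genes measured, and 0 were higher, beside 8.82%. At 6 h without beta-estradiol 5 of 23 (21.7%) were lower, beside 8.11% of 5919 genes, and 0 were higher, beside 12.3%. Hk2, Pgam1, Ldha and Slc16a3 were lower in both, and Slc16a1 was lower in the withdrawal culture. Hk2 and Slc16a3 reached 20 CPM only at 0 h in these 6 h comparisons, and so did Slc16a3 at 12 h in both series and at 24 h of brequinar and Hk2 at 12 h of brequinar. At 12 h, 4 of 23 were lower and 0 higher with brequinar (background 4.67% and 13.5%), and 6 of 22 were lower and 1 higher without beta-estradiol (11.2% and 13.4%), the 1 being Hk3. At 24 h the brequinar culture had 1 member higher, Pgd, and 4 lower of 23, namely Eno1, Slc16a1, Slc16a3 and Pgls (29.2% and 13.8%), and the withdrawal culture had 7 higher and 1 lower of 22 (9.46% and 11.9%). At 48 h, 7 of 23 members (30.4%) were higher with brequinar and 1 was lower, beside 25.7% and 17.3% of all genes, a share of higher members near the background. The 7 were Hk2, Gpi1, Pfkl, Tpi1, Pkm, Slc16a3 and Pgd. Without beta-estradiol 11 of 23 (47.8%) were higher at 48 h and 1 was lower, beside 21.5% and 40.7%. Besides Hk2, Gpi1, Pfkl, Pkm, Slc16a3 and Pgd these were Slc2a3, Aldoa, Pgk1, Tkt and Taldo1, and Slc2a3 counted as measured only through its level in that culture. Slc16a1 was the lower member in both 48 h cultures and at 24 h of withdrawal, and at 48 h of withdrawal it was measured only through 0 h. The median log2 ratio of the measured members at 48 h (pseudocount 5 CPM) was 0.38 with brequinar, beside 0.04 for all genes, and 0.53 without beta-estradiol, beside -0.33. Scaling by the median gene in place of the total raised every log2 ratio at 48 h of withdrawal by 0.35, and 18 of 25 members were then higher and 1 lower, beside 30.7% and 25.6% of 6349 genes under that scaling. In all, 19 members were called at some time in some series. Hk1, Pfkfb3, Pdk1, Rpia and Rpe were measured and never called.

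Glucose enters through facilitative transporters, of which Slc2a3 encodes the high-affinity GLUT3. Slc2a3 stood at 0.903, 1.83, 2.01, 4.58 and 6.30 CPM from 0 to 48 h of brequinar and at 0.752, 2.40, 1.47, 4.26 and 31.5 CPM in the withdrawal series. It was near the floor at 0 h and highest at 48 h in both, and its level of 31.5 CPM was 41.9-fold that of 0 h (24.4 to 77.9). Only that value exceeds the 7.26 CPM of Slc2a3 in the free RNA of barcodes with 2 to 100 UMIs. Hexokinases trap glucose as glucose 6-phosphate, and these cells held 3 of them. Hk2, the inducible form, stood at 25, 16.7, 15, 27.9 and 47.5 CPM with brequinar and at 24.8, 13, 20.6, 36.2 and 40.9 CPM without beta-estradiol. It was lowest in the first 12 h of each series and highest at 48 h, 1.90-fold (1.62 to 2.22) and 1.65-fold (1.42 to 1.92) of 0 h. Hk3, the hexokinase of myeloid cells, stood at 90.8, 75.1, 75.4, 136 and 94.9 CPM with brequinar and at 90.7, 102, 166, 154 and 133 CPM in the withdrawal series. At 12 h it was 1.83-fold of 0 h (1.71 to 1.96) without beta-estradiol and 0.83-fold with brequinar. Hk1, the form bound to mitochondria in most tissues, stayed at 61.3 to 84.0 CPM. Hk3 supplied 50.5% and 50.8% of the UMIs of the 3 hexokinases at 0 h. The share of Hk2 was 13.9% in both 0 h cultures, 21.6% (19.2 to 24.1) at 48 h of brequinar and 17.1% (15.3 to 19.0) at 48 h of withdrawal, with its lowest value, 6.6%, at 6 h of withdrawal.

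Gpi1, the isomerase that turns glucose 6-phosphate into fructose 6-phosphate, and Pfkl, the liver-type phosphofructokinase that is also the main form of neutrophils, were highest at 48 h in both series. Gpi1 stood at 445, 454, 395, 457 and 795 CPM with brequinar and at 458, 456, 429, 915 and 1306 CPM without beta-estradiol. It was called from 48 h on in one and from 24 h on in the other, with 48 h ratios of 1.79 (1.72 to 1.85) and 2.85 (2.77 to 2.94). Pfkl stood at 30.3, 28.4, 35.4, 34.9 and 73.1 CPM with brequinar and at 28.9, 29.9, 28.8, 64 and 90.6 CPM in the withdrawal series, 2.41-fold (2.12 to 2.75) and 3.14-fold (2.79 to 3.53) of 0 h at 48 h. The platelet-type form Pfkp stood at 29 to 53.5 CPM and was 0.661-fold of 0 h (0.578 to 0.754) at 12 h of withdrawal. Pfkl thereby went from 37.0% and 36.1% of phosphofructokinase UMIs at 0 h to 52.9% (49.2 to 56.6) and 60.2% (57.1 to 63.2) at 48 h, and Pfkp from 54.4% and 54.8% to 36.6% and 35.5%. Since no stretch in the transcript end of Pfkp is its own, its part in these shares is uncertain. Pfkfb3 and Pfkfb4 make fructose 2,6-bisphosphate, the activator of phosphofructokinase. Pfkfb3 stood at 15 to 27 CPM in all cultures. Pfkfb4 stood at 2.06 and 1.83 CPM at 0 h, 7.83 CPM at 48 h of brequinar and 16.3 CPM at 48 h of withdrawal, so its share of the pair as counted went from 9.1% and 8.9% to 23.2% (17.2 to 30.1) and 51.9% (45.0 to 58.7). Of the final 500 bases of Pfkfb3, 80.8% lie in an intron of another of its transcripts, so spliced counting may miss its reads and these shares are uncertain.

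**Figure D2:**
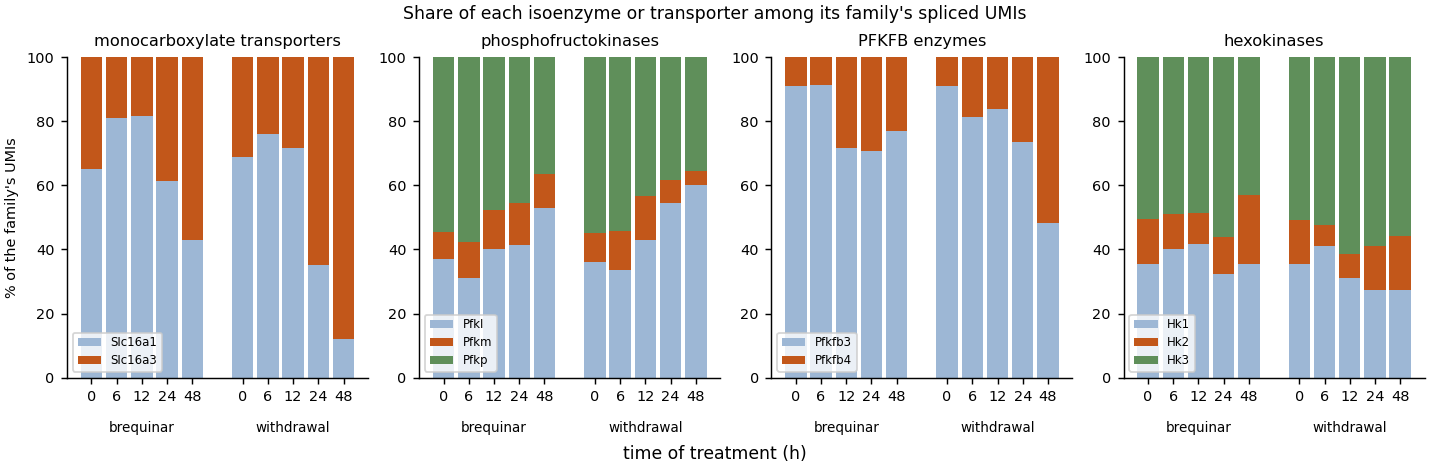
Percent of the spliced UMIs of a family (vertical axes, 0 to 100) held by each isoenzyme or transporter, at 0, 6, 12, 24 and 48 h of brequinar and of withdrawal. Slc16a3 goes from 34.8% and 31.3% of the lactate transporter pair at 0 h to 57.2% and 88.1% at 48 h, and Pfkl from 37.0% and 36.1% to 52.9% and 60.2%.

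The enzymes of the trunk did not move as a block. Aldoa, the aldolase of most tissues, stood at 784, 735, 624, 683 and 1138 CPM with brequinar and at 798, 778, 769, 1173 and 1819 CPM without beta-estradiol. It was called at 48 h of withdrawal (2.28-fold, 2.23 to 2.34), while its 48 h value with brequinar stayed under 1.5-fold. The brain form Aldoc stood at 0.602 and 0.376 CPM at 0 h and was highest, at 18.7 CPM, at 48 h of withdrawal. Pgk1, phosphoglycerate kinase, stood at 445, 411, 371, 325 and 463 CPM with brequinar and at 439, 413, 365, 634 and 1043 CPM in the withdrawal series. Its 24 and 48 h values were the highest in the withdrawal series and no higher than 463 CPM in the brequinar series, with a 48 h ratio of 2.37 (2.30 to 2.45) in the former. Tpi1, triose phosphate isomerase, stood at 284, 198, 271, 226 and 435 CPM with brequinar and at 284, 198, 197, 369 and 331 CPM without beta-estradiol. It was called at 48 h of brequinar (1.53-fold, 1.46 to 1.61). Pkm, pyruvate kinase, stood at 499.6, 392, 411, 649 and 961 CPM and at 503, 430.1, 448, 764 and 1051 CPM. Its series were close, with 48 h ratios of 1.92 (1.86 to 1.99) and 2.09 (2.02 to 2.15). The counts do not tell its M1 and M2 splice forms apart. Pgam1, phosphoglycerate mutase, stood at 768, 499, 484, 945 and 1140.4 CPM with brequinar and at 770.2, 377, 422, 958 and 718 CPM without beta-estradiol. It was 0.65-fold (0.631 to 0.669) and 0.49-fold (0.474 to 0.507) of 0 h at 6 h, and its 48 h level was above 0 h with brequinar and below it without beta-estradiol. Eno1 stood at 283, 192, 176, 140.1 and 243 CPM with brequinar and at 280.2, 192, 152, 279 and 334 CPM in the withdrawal series. Its low point was 0.495-fold of 0 h (0.471 to 0.519), at 24 h of brequinar.

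**Figure D3:**
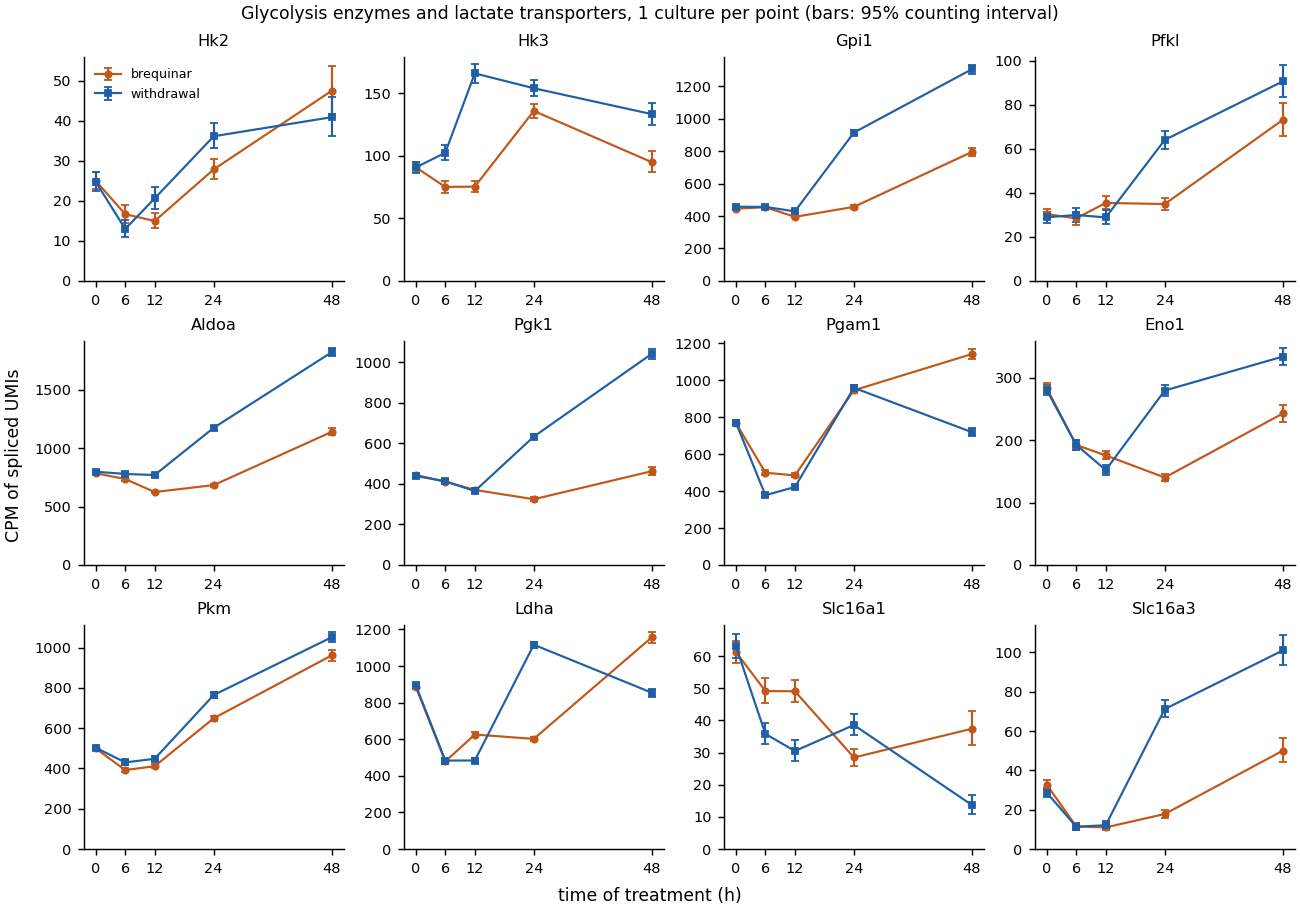
CPM of spliced UMIs (vertical axes, from 0) against hours of treatment for 12 glycolysis genes, brequinar in orange circles and withdrawal in blue squares. Points are single cultures and bars are exact 95% counting intervals. Pgk1 stands at 463 CPM at 48 h of brequinar and 1043 CPM at 48 h of withdrawal, Ldha is near 480 CPM at 6 h in both series, and Slc16a1 and Slc16a3 separate in opposite directions at 48 h.

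The lactate transporters Slc16a3 and Slc16a1 lay on opposite sides of 0 h at 48 h in both series. Ldha, the lactate dehydrogenase subunit that favours lactate formation, stood at 887, 479, 626, 602 and 1157 CPM with brequinar and at 895, 484, 484, 1116 and 854 CPM without beta-estradiol. At 6 h it was 0.54-fold of 0 h in both series (0.525 to 0.556 and 0.524 to 0.557), and its later values lay between 0.54-fold and 1.5-fold. Ldhb, the other subunit, had at most 3 counts in any culture. Slc16a3 encodes MCT4, the low-affinity lactate exporter of highly glycolytic cells. It stood at 32.7, 11.5, 11, 17.8 and 50 CPM with brequinar and at 28.7, 11.3, 12.2, 71.2 and 101 CPM in the withdrawal series. It was lowest at 6 and 12 h in both, then crossed its 0 h level at 24 h without beta-estradiol (2.48-fold, 2.23 to 2.76) and at 48 h with brequinar (1.53-fold, 1.32 to 1.77). At 48 h of withdrawal it was 3.52-fold of 0 h (3.14 to 3.94). Slc16a1 encodes MCT1, the carrier that works in both directions. It stood at 61.3, 49.1, 49.1, 28.5 and 37.4 CPM with brequinar and at 63.1, 35.8, 30.5, 38.6 and 13.7 CPM without beta-estradiol, below 0 h at every time in both. Its 48 h ratios were 0.611 (0.523 to 0.711) and 0.217 (0.174 to 0.268). Slc16a3 therefore went from 34.8% and 31.3% of the UMIs of this pair to 57.2% (52.5 to 61.8) at 48 h of brequinar and 88.1% (85.6 to 90.2) at 48 h of withdrawal, after passing through 18.4% and 24.0% in the first 12 h. Bsg, the chaperone that both carriers need, was 1.72-fold of 0 h at 48 h of brequinar, at 990 CPM. At 48 h of withdrawal, where the share of Slc16a3 was highest, Bsg was not called. Pdk1, the kinase that shuts pyruvate dehydrogenase, stood at 21.4 to 40.9 CPM with no call.

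Promoters of these genes are given because Slc16a1, Slc16a3 and Ldha went different ways while all 3 hold the letters ACGTG near their start. ACGTG is the core of the hypoxia response element, and CACGTG, the E-box bound by MYC, MAX and MLX, holds it on both strands. The sequences are from RefSeq, assembly GRCm38.p6, 250 bases before to 50 after a start site, 5′ to 3′ on the strand of the gene, with ACGTG and its reverse complement CACGT in capitals. Slc16a3 is at chr11:120948817-120949116, Slc16a1 at chr3:104638414-104638713, Ldha at chr7:46845554-46845853 and Pgk1 at chrX:106186850-106187149, all on the plus strand. Tkt, shown as a gene of the pentose phosphate pathway without ACGTG, is at chr14:30548881-30549180 on the plus strand.
Slc16a3: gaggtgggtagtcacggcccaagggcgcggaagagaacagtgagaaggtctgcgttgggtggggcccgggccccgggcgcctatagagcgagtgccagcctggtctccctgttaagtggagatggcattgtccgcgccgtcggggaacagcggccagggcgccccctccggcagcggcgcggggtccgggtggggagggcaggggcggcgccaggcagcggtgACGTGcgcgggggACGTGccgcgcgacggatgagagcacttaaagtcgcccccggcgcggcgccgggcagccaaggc
Slc16a1: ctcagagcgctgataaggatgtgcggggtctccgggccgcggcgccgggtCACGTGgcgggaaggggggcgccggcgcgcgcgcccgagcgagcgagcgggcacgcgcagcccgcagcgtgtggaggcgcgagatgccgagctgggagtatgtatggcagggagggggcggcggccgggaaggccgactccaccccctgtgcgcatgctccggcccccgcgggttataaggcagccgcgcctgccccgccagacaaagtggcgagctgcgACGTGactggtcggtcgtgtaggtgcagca
Ldha: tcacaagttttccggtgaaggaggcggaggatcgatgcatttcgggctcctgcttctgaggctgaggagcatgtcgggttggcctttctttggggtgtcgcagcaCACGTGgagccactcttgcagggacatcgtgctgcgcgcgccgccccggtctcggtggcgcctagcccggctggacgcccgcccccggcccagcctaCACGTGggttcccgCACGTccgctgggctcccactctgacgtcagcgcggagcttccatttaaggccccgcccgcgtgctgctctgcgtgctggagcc
Pgk1: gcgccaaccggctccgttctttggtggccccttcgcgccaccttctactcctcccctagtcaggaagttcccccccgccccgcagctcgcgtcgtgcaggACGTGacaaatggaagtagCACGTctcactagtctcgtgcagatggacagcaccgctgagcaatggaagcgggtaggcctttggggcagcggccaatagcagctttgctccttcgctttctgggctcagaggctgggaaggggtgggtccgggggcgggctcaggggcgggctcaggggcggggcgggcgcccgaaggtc
Tkt: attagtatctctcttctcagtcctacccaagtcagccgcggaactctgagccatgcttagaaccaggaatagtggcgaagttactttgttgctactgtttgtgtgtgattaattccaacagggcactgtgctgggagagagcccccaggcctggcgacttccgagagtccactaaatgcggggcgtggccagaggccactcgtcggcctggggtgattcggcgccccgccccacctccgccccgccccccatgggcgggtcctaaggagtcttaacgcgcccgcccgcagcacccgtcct

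Ldha has 2 copies of CACGTG and a further CACGT, Slc16a1 has 1 CACGTG and a further ACGTG, and Slc16a3 and Pgk1 have 2 separate copies each and no CACGTG. The tables held 44 promoters for 30 of the 31 members. On either strand ACGTG was present in 19 of the 44 (43.2%), beside 19.6% of all 32851 promoters of this length, and GCGTG, the other form of the hypoxia core, in 26 (59.1%), beside 32.4%. CACGTG was present in 9.09%, beside 7.15%. The antioxidant response motif TGACNNNGC (11.4% beside 12.4%), the PU.1-type motif GAGGAAG (18.2% beside 13.6%) and the C/EBP-type motif TTGCNNAA (9.09% beside 10.8%) were near the share of all promoters. Promoters of 1 gene overlap in places and are not independent. Base composition was not matched. These are matches of letters, with no measure of binding.

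In the oxidative branch of the pentose phosphate pathway, Pgd, the 6-phosphogluconate dehydrogenase that makes NADPH, was the member with a call in both series at both late times. It stood at 326, 275, 336, 648 and 573 CPM with brequinar and at 336, 336, 456, 685 and 742 CPM without beta-estradiol. The values at 24 h were 1.99-fold (1.93 to 2.05) and 2.04-fold (1.97 to 2.10) of 0 h, and those at 48 h 1.76-fold and 2.20-fold. Pgls, the lactonase one step before it, went the other way, at 671, 699.9, 524, 368 and 496 CPM with brequinar and at 673, 657, 582, 626 and 491 CPM in the withdrawal series. Its lowest value was 0.549-fold of 0 h (0.533 to 0.566), at 24 h of brequinar. Part of its last exon, 42.6% of the final 500 bases, lies in an intron of another of its transcripts, so spliced counting may miss some of its reads.

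In the non-oxidative branch the series parted. Tkt, transketolase, stood at 679, 703, 579, 453 and 549 CPM with brequinar and at 681, 687, 618, 942 and 1193 CPM without beta-estradiol. From 24 h on it was below its 0 h level with brequinar and above it without beta-estradiol, at 0.809-fold and 1.75-fold (1.70 to 1.80) at 48 h. Taldo1, transaldolase, stood at 699, 536, 487, 766 and 949.8 CPM with brequinar and at 703, 566, 579, 1104 and 1263 CPM in the withdrawal series. It was lowest at 6 or 12 h and highest at 48 h in both, and was called at 24 and 48 h of withdrawal (1.57-fold and 1.80-fold). Rpia, the ribose 5-phosphate isomerase, stood at 119.6 to 193 CPM and Rpe at 23.3 to 46.9 CPM, with no call against 0 h. The branch summed to 1.08-fold of 0 h at 48 h of brequinar and 1.68-fold (1.65 to 1.71) at 48 h of withdrawal, and the oxidative branch to 1.07-fold and 1.22-fold.

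Set directly against each other at matched times, the brequinar and withdrawal cultures had 0 of 21 measured members apart at 6 h, beside 1.9% of 5882 genes higher and 1.45% lower with brequinar. At 12 h Slc16a1 was higher with brequinar (1.61-fold, 1.41 to 1.84) and Hk3 lower (0.454-fold, 0.422 to 0.489), 1 each of 21, beside 13.2% and 7.33%. At 24 h, 11 of 23 members (47.8%) were lower with brequinar and 0 higher, beside 8.05% and 29.6% of 6221 genes. The 11 were Gpi1, Pfkl, Aldoa, Tpi1, Pgk1, Eno1, Ldha, Slc16a3, Pgls, Rpe and Tkt. The difference was largest for Slc16a3, 3.99-fold lower (3.51 to 4.55), and next for Tkt, 2.08-fold lower (2.02 to 2.14). At 48 h, 6 of 24 members (25%) were lower with brequinar, namely Slc2a3, Gpi1, Aldoa, Pgk1, Slc16a3 and Tkt, and 3 were higher, namely Pfkfb3, Pgam1 and Slc16a1, beside 8.57% and 37.6% of 6112 genes. Slc16a3 at 24 h and Slc2a3 at 48 h were measured only through the withdrawal culture, and Pfkfb3 and Slc16a1 at 48 h only through the brequinar culture. Scaled by the median gene, 14 of 26 were lower and 1 higher at 48 h, beside 19% and 18.8% of 6288 genes under that scaling. Pgk1 was 0.444-fold (0.424 to 0.465) and Tkt 0.46-fold (0.441 to 0.480) of the withdrawal culture, and Pgam1 was 1.59-fold (1.53 to 1.65).

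Within the late cultures the cells themselves were unequal in glycolysis transcripts. The 24 genes took 1% or more of the UMIs in 0.133% of the cells at 0 h of the brequinar series, 0.479% at 6 h, 0.130% at 12 h, 1.37% at 24 h and 14.2% (11.3 to 17.5, 75 of 528 cells) at 48 h. In the withdrawal series the share of such cells was 0.0739%, 0.240%, 0% (0 of 1229, which allows up to 0.300%), 12.8% (11.1 to 14.6) and 28.5% (25.6 to 31.4, 274 of 963 cells). With every cell thinned to 2500 UMIs the 48 h shares were 16.5% and 30.6%, the 24 h shares 1.74% and 14.2%, and the 0 h shares 0.535% and 0.256%, with 13 to 249 cells of a culture too shallow to thin left out. The 1% line was set after the distribution was seen and lies on a slope without a gap, with 46 and 82 cells between 0.9% and 1.1% in the 48 h cultures. Cells above the line held fewer UMIs than the others, in the median 5756 against 6997 at 48 h of withdrawal and 8981 against 10032 at 48 h of brequinar. At 48 h of withdrawal they held 46.8% of the glycolysis UMIs of the culture and 25.2% of all its UMIs.

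**Figure D4:**
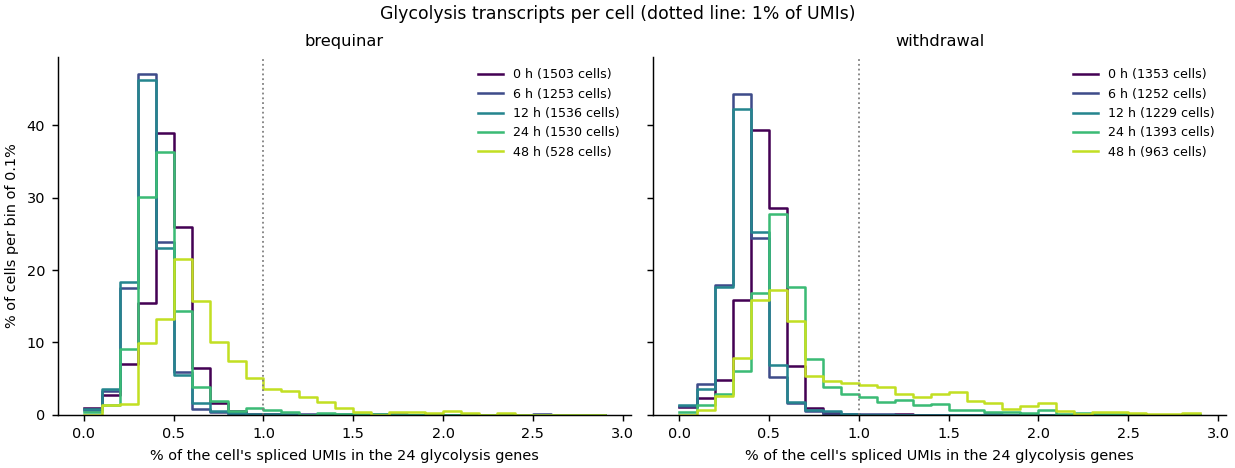
Distribution over cells of the percent of spliced UMIs in the 24 glycolysis genes (horizontal axis, bins of 0.1%, values of 2.9% or more in the last bin), as percent of the cells of a culture (vertical axis), 1 line per time. The 6 and 12 h lines lie to the left of 0 h in both series, and a tail past 1% (dotted line) holds 14.2% of cells at 48 h of brequinar, 12.8% at 24 h and 28.5% at 48 h of withdrawal.

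These cells also held more transcripts of hypoxia response genes that are not members. Of 17 such genes, 7 of 12 measured were higher and 1 lower in the cells above the line at 48 h of brequinar, beside 4.58% and 8.05% of all genes measured in that comparison. At 24 h of withdrawal 11 of 12 were higher and 0 lower (5.33% and 3.09%), and at 48 h 10 of 11 were higher and 0 lower (7.83% and 9.61%). Ankrd37 and Ndrg1 at all 3 of these, Ak4 and Kdm3a at both withdrawal times and Bnip3 at 24 h reached 20 CPM only in the cells above the line, which fixes their direction: 2 of the 7, 5 of the 11 and 4 of the 10. Ankrd37, a HIF-1 target of unsettled role, stood at 122 CPM in the cells above the line and 7.79 CPM in the others at 48 h of withdrawal, 15.7-fold (11.2 to 22.6). Egln3, a prolyl hydroxylase that marks HIF for destruction, stood at 171 and 38.4 CPM, and the collagen hydroxylase P4ha1 at 84.3 and 20.1 CPM. Hif1a itself stood at 4.04 and 6.63 CPM. Car9 was the 1 gene lower at 48 h of brequinar, at 0.623-fold (0.348 to 1.04). It was 1.02-fold and 1.08-fold at 24 and 48 h of withdrawal, at under 20 CPM. Vegfa was 1.31-fold at 48 h of brequinar, and 1.06-fold and 1.58-fold at 24 and 48 h of withdrawal. Ndufa4l2, a mitochondrial protein made under hypoxia that was picked after its values were seen, was 34.4-fold, 44.6-fold and 41.6-fold higher in the 3 cultures. Hmox1, picked likewise, was 3.64-fold, 3.75-fold and 11.8-fold. Lig1, Tyms and Mki67, genes of dividing cells picked likewise, were 0.372-fold, 0.428-fold and 0.571-fold at 48 h of withdrawal. They were 0.633 to 0.939-fold at 48 h of brequinar and 0.838 to 0.943-fold at 24 h of withdrawal. Granule genes, also picked after their values were seen, were not alike in these cells. S100a8 and S100a9 were lower, at 0.527-fold (0.519 to 0.535) and 0.438-fold (0.431 to 0.445) at 48 h of withdrawal and at 0.116-fold and 0.0886-fold at 48 h of brequinar, and Chil3 stood at 0.354-fold there, 0.357-fold at 24 h and 0.623-fold at 48 h of withdrawal. Lcn2 stood at 0.954-fold, 1.46-fold and 0.946-fold in the same order and Ngp at 1.30-fold, 0.601-fold and 0.822-fold. Camp stood at 2.12-fold, 0.244-fold and 0.717-fold, at under 20 CPM in the first pair of these.

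The reverse split, which uses no member to choose the cells, set apart some glycolysis genes in the late cultures. It did not set apart the hexokinases or the pentose phosphate sum at 1.5-fold. In each culture the 25% of cells richest in the 17 hypoxia genes were set against the other cells. At 0 h, 0 of 23 members differed in either culture, beside 0.145% of genes higher and 0.108% lower in the brequinar series and 0.0724% and 0.145% in the withdrawal series, and the glycolysis sum was 1.08-fold and 1.03-fold. At 6 h 0 members were called in either series, beside 0.359% of genes higher and 0.582% lower with brequinar and 0.511% and 0.664% without beta-estradiol. At 12 h it was again 0 members, beside 0.15% and 0.2% and beside 0.555% and 0.624%. At 24 h of brequinar 4 of 23 members, namely Pfkl, Tpi1, Pdk1 and Slc16a3, were higher and 0 lower, beside 0.497% and 0.321%, with a glycolysis sum of 1.21-fold (1.19 to 1.23). At 48 h of brequinar 10 of 24 were higher and 0 lower, beside 3.32% and 3.73%, with a sum of 1.67-fold (1.64 to 1.71). In the withdrawal series 10 of 23 were higher at 24 h and 13 of 24 at 48 h, 0 lower at both, beside 2.41% and 6.96% higher and 0.331% and 3.88% lower. Pdk1 and Slc16a3 at 24 h and Pfkm at 48 h of brequinar, and Aldoc, Pdk1 and Slc16a1 at 48 h of withdrawal, reached 20 CPM only in the rich cells, which fixes the direction of their calls. The sums there were 1.78-fold (1.76 to 1.81) and 2.14-fold (2.10 to 2.18). Pfkl, Pfkp, Aldoa, Tpi1, Pgk1, Eno1, Pkm, Ldha and Slc16a3 were called at 48 h of brequinar and at 24 and 48 h of withdrawal, and the 3 hexokinases in none of these.

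At 48 h of withdrawal Pgk1 stood at 2202 CPM in the cells rich in hypoxia transcripts and 737 CPM in the others, with an interval of the ratio of 2.85 to 3.13. Ldha stood at 1650.3 and 644 CPM, 2.56-fold (2.43 to 2.70), although over the whole culture it was below 0 h. Slc16a3 stood at 223 and 68.7 CPM (3.25-fold), Pfkl was 2.94-fold, Tpi1 2.65-fold, and Pdk1, which was never called over whole cultures, 4.57-fold (3.43 to 6.10). Slc16a1, lower in the culture as a whole, stood at 24.4 CPM in these cells (35 counts) and 10.9 CPM in the others (59 counts). At 24 h of withdrawal 50 of the 62 counts of Slc2a3 lay in them, a ratio of 14.3 (7.51 to 29.5). Hk1, Hk2 and Hk3 stood at 0.814 to 1.26-fold at 48 h in both series, and Pgam1 at 0.991-fold with brequinar and just under 1.5-fold without beta-estradiol. The pentose phosphate sum was 0.981-fold (0.943 to 1.02) at 48 h of brequinar, 0.98-fold (0.960 to 1.00) at 24 h and 0.969-fold (0.940 to 0.998) at 48 h of withdrawal, and 0.974-fold to 1.02-fold in the other cultures. Pgd (0.944), Tkt (0.963) and Taldo1 (0.989), all higher in the 48 h withdrawal culture as a whole, thus stood at near-equal levels in both kinds of cell. Split instead at the median of granule transcripts, that culture had Ldha at 0.658-fold (0.624 to 0.694), Pgk1 at 0.673-fold and Slc2a3 at 2.12-fold (1.58 to 2.86) in the cells richer in granule genes. Of the pentose phosphate genes, Tkt stood at 1.24-fold (1.19 to 1.30), Pgd at 0.953-fold, Taldo1 at 1.01-fold and Rpia at 0.762-fold (0.662 to 0.877) in this split. The same split gave 1.04-fold for Ldha, 1.13-fold for Pgk1 and 2.19-fold for Slc2a3 at 24 h of withdrawal, and 0.856-fold, 0.905-fold and 0.901-fold at 48 h of brequinar. Slc2a3 rested there on few counts, 40 and 22 (interval 1.27 to 3.88) at 24 h of withdrawal and 15 and 18 (0.422 to 1.89) at 48 h of brequinar. All of these levels were under 20 CPM and under its 7.26 CPM in free RNA. In the hypoxia split at 48 h of withdrawal, median depth was 5570 UMIs in the rich cells and 6855 in the others. In the granule split of that culture it was 6424 UMIs in the cells richer in granule genes and 6629 in the others. The part of depth in the ratios of either split was not tested.

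**Figure D5:**
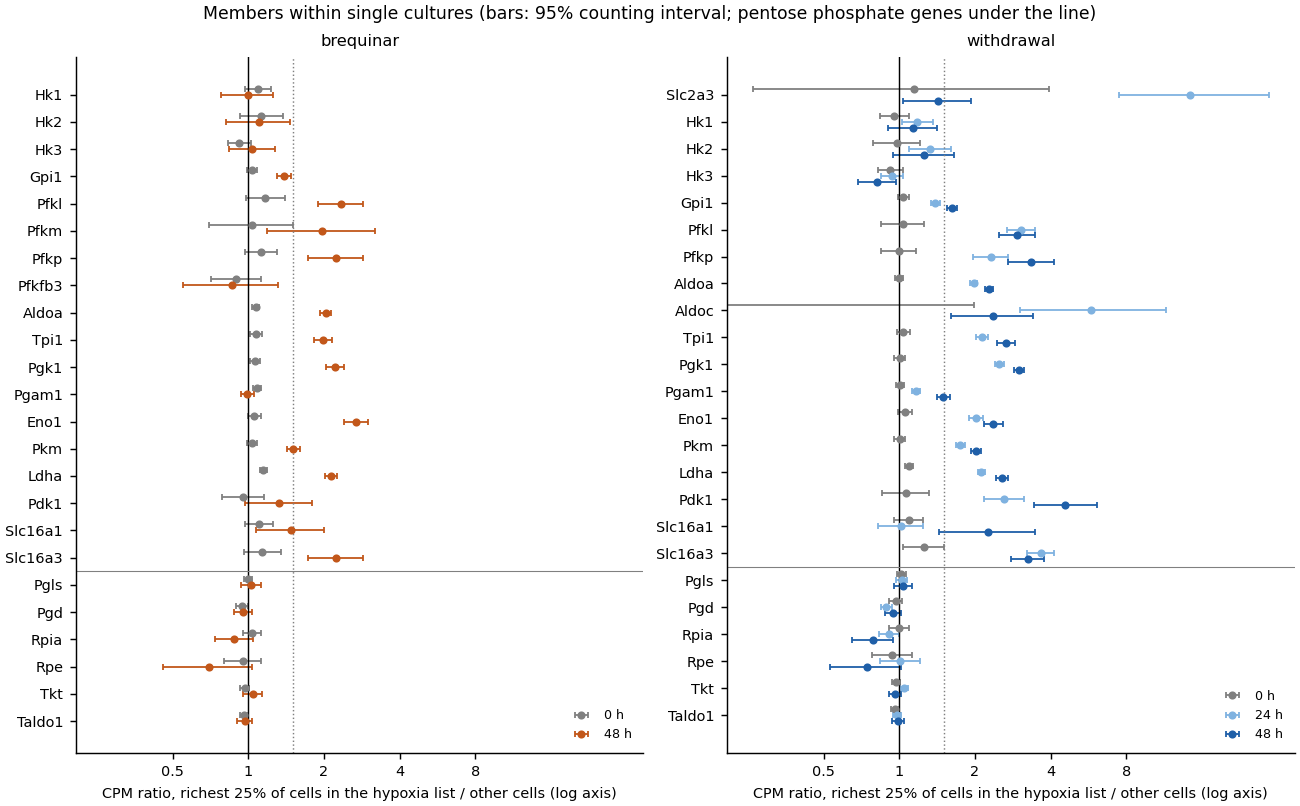
Ratio of CPM in the 25% of cells richest in 17 hypoxia genes to CPM in the other cells of the same culture (horizontal axis, log scale) for each member measured at 48 h, with exact 95% counting intervals. Grey is 0 h, orange and dark blue 48 h, light blue 24 h of withdrawal, and the dotted line is 1.5-fold. At 48 h Ldha lies at 2.13 with brequinar and 2.56 without beta-estradiol, and the pentose phosphate genes below the horizontal line lie at 0.700 to 1.04.

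Without these 25% of cells in every culture, a setting chosen after the data were seen, the glycolysis sum at 48 h was 1.26-fold of 0 h with brequinar and 1.36-fold without beta-estradiol, against 1.43-fold and 1.67-fold with them.

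Neighbouring pathways were counted by the same rule, against 25.7% of all genes higher and 17.3% lower at 48 h of brequinar and 21.5% and 40.7% at 48 h of withdrawal. In glycogen and gluconeogenesis 7 of 11 measured genes were higher and 1 lower at 48 h of brequinar, and 7 of 10 higher and 1 lower at 48 h of withdrawal. Pygl, the glycogen phosphorylase of liver and leukocytes, stood at 12.2 CPM at 0 h and 80.2 CPM at 48 h of brequinar, and at 13 and 179 CPM in the withdrawal series (13.8-fold). Among genes of pyruvate entry and the TCA cycle 0 of 11 were higher in either series at 48 h, and 4 were lower with brequinar and 8 without beta-estradiol, the latter beside 40.7% of all genes. Idh3a, a subunit of isocitrate dehydrogenase, was 0.575-fold and 0.232-fold of 0 h, and fumarase Fh1 0.497-fold and 0.291-fold. Over whole cultures 7 of 11 hypoxia genes were higher and 1 lower at 48 h of brequinar, and 5 of 9 higher and 2 lower at 48 h of withdrawal. NRF2 targets outside the pathway had 2 of 6 higher and 0 lower with brequinar, and 2 of 6 higher and 3 lower without beta-estradiol, few genes at shares that say little beside those of all genes. Hmox1 was 16.3-fold and Prdx1 0.338-fold of 0 h at 48 h of withdrawal. Of 4 measured regulators 1 was higher and 0 lower with brequinar, and 2 were higher, Mlx and Nfe2l2, and 2 lower, Myc and Mtor, without beta-estradiol. Mlx, the partner of glucose-sensing transcription factors, was 2.67-fold and 2.34-fold of 0 h, and Myc was 0.329-fold at 48 h of withdrawal. Of 29 other isoenzymes 3 or 4 were measured. The ADP-dependent glucokinase Adpgk was higher in both (1.67-fold and 3.59-fold), and Tigar, which diverts sugar into the pentose phosphate pathway, was 2.22-fold at 48 h of brequinar.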

How the data were processed

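Raw UMI counts, spliced and unspliced, were deposited by the authors as matrices in which both runs of 1 pool are joined. The unspliced counts were not used. Tools listed in the submitters' processing notes are Cell Ranger, bustools 0.39.4 and kallisto 0.46. The genome build is not given in the sources used here. Of 54838 gene identifiers 54723 matched a symbol, and identifiers sharing a symbol were summed. Deposited tables by the authors assign MULTI-seq barcodes (lipid-anchored DNA marks, 1 per culture) to conditions and cells. Of 15582 barcodes, 2777 called as doublets by the authors (17.8%) and 265 negatives were left out, 26 barcodes listed repeatedly being all negative. No doublet caller was added. The 12540 cells left held 63.9% of all spliced UMIs. Barcodes do not mark the run, so 1 present in both runs counts as 1 cell.

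CPM carry exact Poisson intervals, ratios exact conditional binomial intervals and shares exact Clopper-Pearson intervals, computed with Python 3.11.15, numpy 2.4.6, pandas 2.3.3 and scipy 1.17.1 and tested on simulated data. Runs and cells are not replicates. Members at least 1.5-fold from 0 h at any time were given with all values, except Pfkp, and the others by range. Shared stretches were searched in GENCODE M21 transcripts. Members and gene lists were chosen with earlier results of these data known. Alternatives covered cell filters, granule-rich cells, scaling, cell weights, free RNA, the 0 h reference, thinning, thresholds and pseudocount.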

Additional observations from a re-analysis of the deposited data

Results flagged for a closer look

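For Hk3, Slc16a3 and Tkt the series stood on opposite sides of 0 h at the same time, with at least 1 series past 1.5-fold. The difference was not tested, since each value compares 1 culture with 1 culture. Hk3 at 12 h was 0.830-fold of 0 h with brequinar and 1.83-fold without beta-estradiol. Slc16a3 at 24 h was 0.545-fold and 2.48-fold. Tkt at 48 h was 0.809-fold and 1.75-fold.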

How the results depend on the processing

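Of 53 ratios of called members 0 changed direction under any setting, and 48 to 53 stayed past 1.5-fold. The pseudocount moved none of 8 medians of the members past a fixed limit on the log2 shift. Leaving out the 2% of cells richest in granule genes or summing both 0 h cultures changed none of the counts and sums named here beyond the limits set. Counts are of members higher or lower against 0 h, or with brequinar against withdrawal where both are named.

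Without a filter on low values, 2, 4, 7 and 13 members were higher at 6, 12, 24 and 48 h of brequinar (0, 0, 1 and 7 with it), 2, 5 and 11 at 6, 12 and 24 h of withdrawal (0, 1 and 7), and 2 lower at 48 h in both (1). Brequinar against withdrawal then had 1 higher and 1 lower at 6 h, 3 and 3 at 12 h and 1 higher at 24 h. From 5 CPM on, 2 and 3 were higher at 12 and 24 h of brequinar and 2 against withdrawal at 12 h. At 2-fold, brequinar had 1, 1, 2 and 0 lower at 6, 12, 24 and 48 h (4, 4, 4 and 1) and 0 and 1 higher at 24 and 48 h (1 and 7). Withdrawal had 2, 2 and 0 lower at 6, 12 and 24 h (5, 6 and 1) and 0 and 3 higher at 12 and 24 h (1 and 7). Brequinar against withdrawal had 0 higher at 12 h, 3 lower at 24 h (11) and 1 higher at 48 h (3).

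A minimum of 1000 UMIs with under 10% mitochondrial UMIs gave 2 higher at 24 h of brequinar, as did removing 5% of each sum as free RNA. The latter gave 48 h glycolysis ratios of 1.45 with brequinar and 1.71 for withdrawal, and 1.52 for pentose phosphate genes in withdrawal. Scaling by the median gene gave 18 of 25 higher at 48 h of withdrawal (11 of 23), ratios of 2.13 for glycolysis and 1.91 for pentose phosphate genes there, and 1 higher and 14 lower for brequinar against withdrawal at 48 h. Cells thinned to 2500 UMIs gave 2 lower at 48 h of withdrawal, 1 lower for brequinar against withdrawal at 6 h, 3 higher and 2 lower at 12 h, and 48 h ratios of 1.5 and 1.79 for glycolysis and 1.10 for pentose phosphate genes with brequinar. The mean of CPM per cell gave 0 higher and 2 lower for brequinar against withdrawal at 12 h, and 1.52, 1.82 and 1.10 for those ratios. Without the 25% of cells richest in hypoxia transcripts, a setting chosen after the data were seen, 2 were lower at 48 h of brequinar and the glycolysis ratios were 1.26 and 1.36. Beyond fewer cells, fewer or more genes counted and another scale, the cause was not tested. Slc2a1, Ldhb and G6pdx had only 0 to 10 counts in a culture, so their values are uncertain.

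No paired analysis was possible because a condition has 1 culture and both runs repeat 1 pool within a joint matrix.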
